A study of Mus musculus with 8 samples.

Results

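The transcription factor Nrf2, encoded by Nfe2l2, drives the best-known antioxidant programme of the liver. In resting cells the adaptor protein Keap1 holds Nrf2 and passes it to a ubiquitin ligase for degradation. Oxidants and reactive chemicals modify cysteines of Keap1, Nrf2 then accumulates, pairs with a small Maf protein and binds antioxidant response elements near its target genes. Among the targets are enzymes that make glutathione, reduce oxidised thiols and quinones, and break down heme.

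Expression of 10 genes of this response was examined in liver, namely Nfe2l2, Keap1, Nqo1, Hmox1, Gclc, Gclm, Txnrd1, Srxn1, Gsr and Cat. They were chosen by name for their known role, with earlier results of these data known, from the 34836 gene names on the array. The arrays hold 13 probes for them among 55681 probes in all. Of the 10 genes, 7 are read by 1 probe and 3 (Hmox1, Gsr and Cat) by 2 probes. Every probe was kept separate.

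Liver RNA came from 4 male NZO/HiBomDife mice (NZO, an inbred strain that becomes obese and prone to diabetes) and 4 male C57BL/6 mice (B6, the lean strain). All 8 mice were 6 weeks old and received a diet with 45% fat, so that no mouse on another diet enters the comparison. Each mouse has 1 array with 1 colour, and the difference between strains is the comparison that the labels imply. The labels do not name litters or cages. NZO and B6 differ at many places of the genome and in body weight, and these cannot be told apart here.

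Levels are given as the log2 of the processed signal minus the 75th percentile of the array, so that a level of 0 equals this percentile. The 75th percentile was 119 to 142 in NZO and 136 to 159 in B6 in units of intensity, and the share of spots well above background was 50.4% to 55.0% on NZO arrays and 53.1% to 60.1% on B6 arrays. Precision is limited by there being 4 arrays in each strain. Levels of different probes depend on the probe and do not rank genes by abundance. Sums over markers were compared between strains or arrays, and differences between probes of a gene between strains only. The 8 arrays were spread over 5 slides. On the first of 2 scan days, 3 NZO arrays and 2 B6 arrays were read, and on the second 1 NZO array and 2 B6 arrays. A single slide held both strains, with 1 NZO and 2 B6 arrays.

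The liver label was checked with hepatocyte markers. Alb, Ttr, Apoa1, Cps1 and Tat were above background on all 8 arrays, and 0 of the 5 passed limma's adjusted threshold or an unadjusted p of 0.05 between the strains, while 1 passed in the methods' t-test after adjustment. Adipoq, Plin1 and Lep, which define adipocytes, and Cela3b, Pnlip, Cpa1 and Prss2 of the exocrine pancreas were above background on 0 arrays of either strain. The other markers listed for these cells, Cidec, Fabp4 and Car3 for adipocytes and Cela1 and Ctrb1 for pancreas, were above background on all 8 arrays.

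Some sequences help to place the probes and the known binding site. The probe of Hmox1 that lies nearer to the start of the transcript covers bases from position 324 of the transcript and maps to chr8:77620797-77620856 of mm9, the build named in the files. Its sequence reads without a stop codon in 1 of the 3 frames of this strand and is shown because the other Hmox1 probe, 966 bases further downstream (chr8:77624207-77624266), gave another result.
Hmox1 probe at position 324: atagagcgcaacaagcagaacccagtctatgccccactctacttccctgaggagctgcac

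The core of the antioxidant response element was searched as TGACNNNGC on both strands, in windows from 250 bases before to 50 bases after each start site in RefSeq (GRCm38.p6). Its first letters TGAC are shared with sites of the AP-1 and CREB families. The table had windows for 7 of the 10 genes (Nfe2l2, Keap1, Nqo1, Gclm, Txnrd1, Srxn1 and Cat), and Hmox1, Gclc and Gsr had no entry. The motif occurred in windows of 4 of these 7 genes, and in 12.4% of all 32851 windows or 14.0% of the 27025 genes with a window. Distances count from the start site of the window, which for Gclm and for the match of Txnrd1 lies within the span of the gene given further on. The matches upstream of the start site are shown in the direction of the gene with the motif, or its reverse complement, in capitals.
Nfe2l2, 240 bases upstream, minus strand, chr2:75704885-75704913: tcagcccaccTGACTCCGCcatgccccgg
Gclm, 134 bases upstream, plus strand, reverse complement, chr3:122245413-122245441: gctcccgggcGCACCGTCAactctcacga
Txnrd1, 92 bases upstream of 1 of its 3 start sites, plus strand, reverse complement, chr10:82859104-82859132: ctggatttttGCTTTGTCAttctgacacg
The match of Srxn1 lay downstream of its start site. A match is a run of letters and was not tested as a site of binding. Keap1, Nqo1 and Cat had no match within these windows.

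For 9 of the 10 genes no probe differed between NZO and B6 liver beyond the adjusted threshold. All 13 probes were above background on all 8 arrays. After adjustment over all 27639 probes tested, 0 of the 13 were higher in NZO, where 6.78% of all probes tested were called higher. One gene, Hmox1, the heme oxygenase that opens the heme ring, was lower in NZO at 1 of its 2 probes. Whether NZO carries sequence variants under any of these probes was not tested. The call of Hmox1 made 1 of 13 probes lower (7.69%), beside 7.44% of all probes tested. At an unadjusted p of 0.05, 1 probe was higher (Cat) and 1 was lower (Hmox1), beside 13.7% and 14.1% of all probes. The methods' thresholds (unadjusted p of 0.05, log2 fold change of 0.7 in size) gave 0 higher probes beside 5.16% and 1 lower probe beside 7.08% of all probes. The methods' t-test with adjustment also gave 0 higher and 1 lower, beside 4.72% and 4.32%. The median log2 fold change was 0.03 over the 13 probes and 0.01 over all probes tested, and the median of its size was 0.18 and 0.24.

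**Figure D1:**
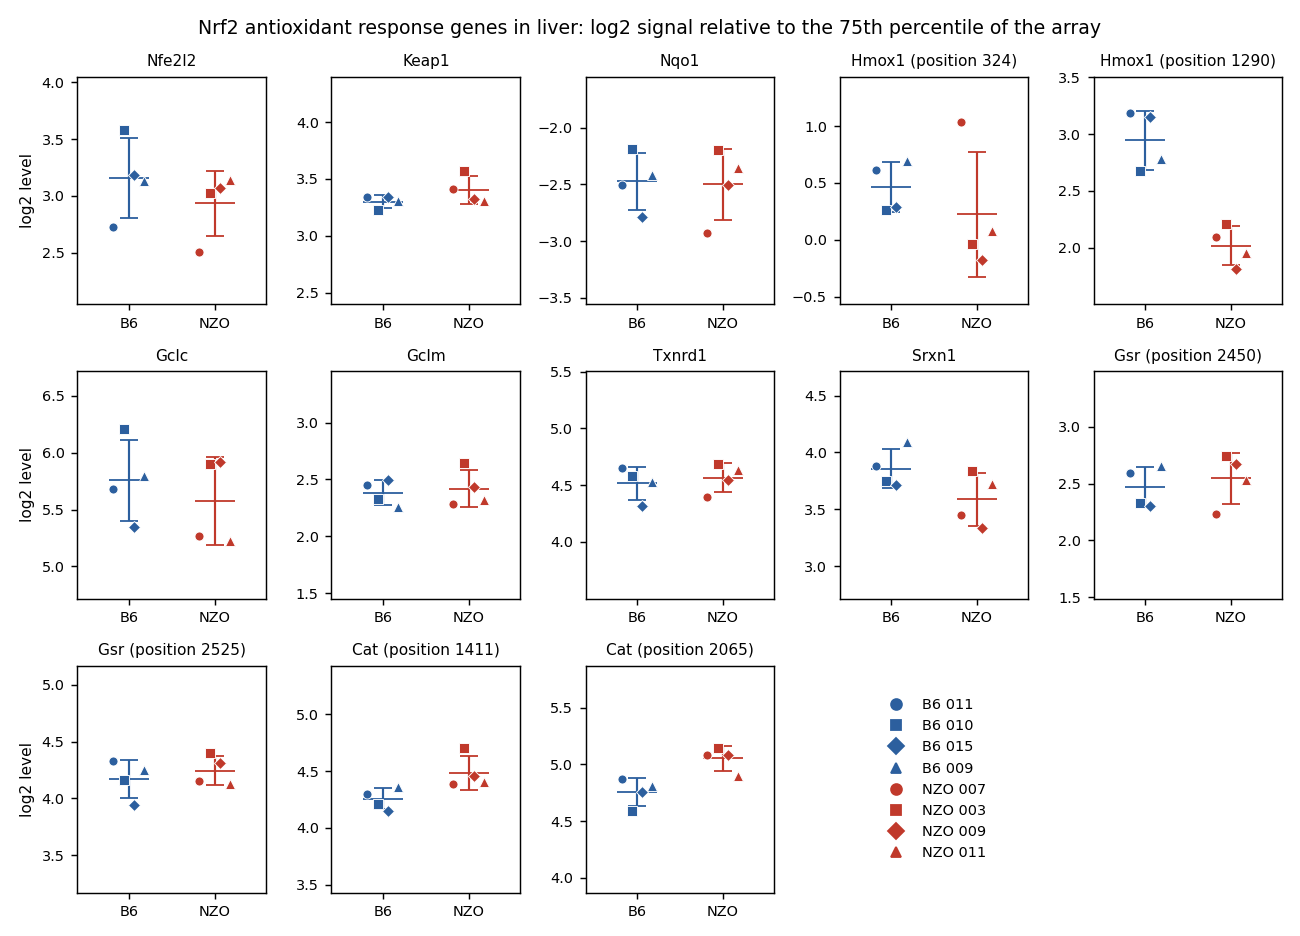
Log2 level of each probe (y axis, log2 signal over the 75th percentile of the array, 2 log2 units in every panel) in 4 B6 and 4 NZO livers (x axis); points are single arrays, bars show the mean and SD, and positions count from the start of the transcript. The NZO arrays lie below all B6 arrays for Hmox1 at position 1290, above them for both probes of Cat, and the ranges of the strains overlap for the other 10 probes.

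Hmox1 lies on chromosome 8 of GRCm38 from 75093618 to 75100593. At the probe at position 1290 its log2 level was 2.09, 2.21, 1.81 and 1.95 in the mice NZO 007, 003, 009 and 011, and 3.19, 2.67, 3.15 and 2.78 in B6 011, 010, 015 and 009. The highest NZO array thus lay below the lowest B6 array. The NZO mean was 2.02 ± 0.17 (SD, n = 4) and the B6 mean 2.95 ± 0.26 (SD, n = 4). The log2 fold change was -0.93 (SE 0.15, 95% confidence interval -1.28 to -0.58, limma adjusted p = 0.00464; SE is the standard error). The level in NZO was thus 1.91-fold lower. Strains that do not overlap were found for 3 of the 13 probes, beside 22% of all probes tested.

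The probe of Hmox1 at position 324, whose sequence is shown above, read 1.04, -0.04, -0.17 and 0.07 in the NZO mice in the same order and 0.61, 0.27, 0.28 and 0.69 in the B6 mice. NZO 007 was the highest of all 8 arrays here, and the other 3 NZO arrays lay below all B6 arrays. The log2 fold change was -0.24 (SE 0.26, 95% confidence interval -0.85 to 0.37), and limma's adjusted p was 0.605. Without NZO 007 it was -0.51 (limma adjusted p = 0.0619). NZO 007 also had the highest summed level of skeletal muscle markers (16.7 times the 75th percentile, against 0.121 to 5.44 on the other arrays), and the part of muscle in the value was not tested. Ckm, a muscle marker, was above background on 1 NZO and 2 B6 arrays.

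Both probes were compared within each array, after their values had been seen. The downstream minus the upstream probe came to 1.79 ± 0.51 (SD, n = 4) in NZO on the log2 scale. In B6 it came to 2.48 ± 0.33 (SD, n = 4). The difference of -0.69 between the strains gave p = 0.0571 in an exact two-sided permutation test, where 0.0286 is the smallest p possible, and 0.171 after adjustment over the 3 genes with 2 probes. The probes of Gsr and Cat gave differences of 0.00 and 0.06 in the same test (exact p = 1 and 0.429). With 4 arrays a strain, 1 gene alone cannot pass 0.05 after this adjustment, so that the test shows neither a difference nor its absence.

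Within the first scan day the downstream Hmox1 probe differed by -0.92 between NZO and B6, and within the second day by -0.89. With the day as a fixed term the log2 fold change was -0.91 (limma adjusted p = 0.010). On the slide with both strains it was -0.70. Taking the slide as a fixed term, which leaves the comparison to these 3 arrays, gave an adjusted p of 0.224. The upstream probe differed by -0.32 within the first day and by 0.39 within the second. Leaving out any mouse kept the downstream probe between -1.02 and -0.85, with an adjusted p of at most 0.0164.

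**Figure D2:**
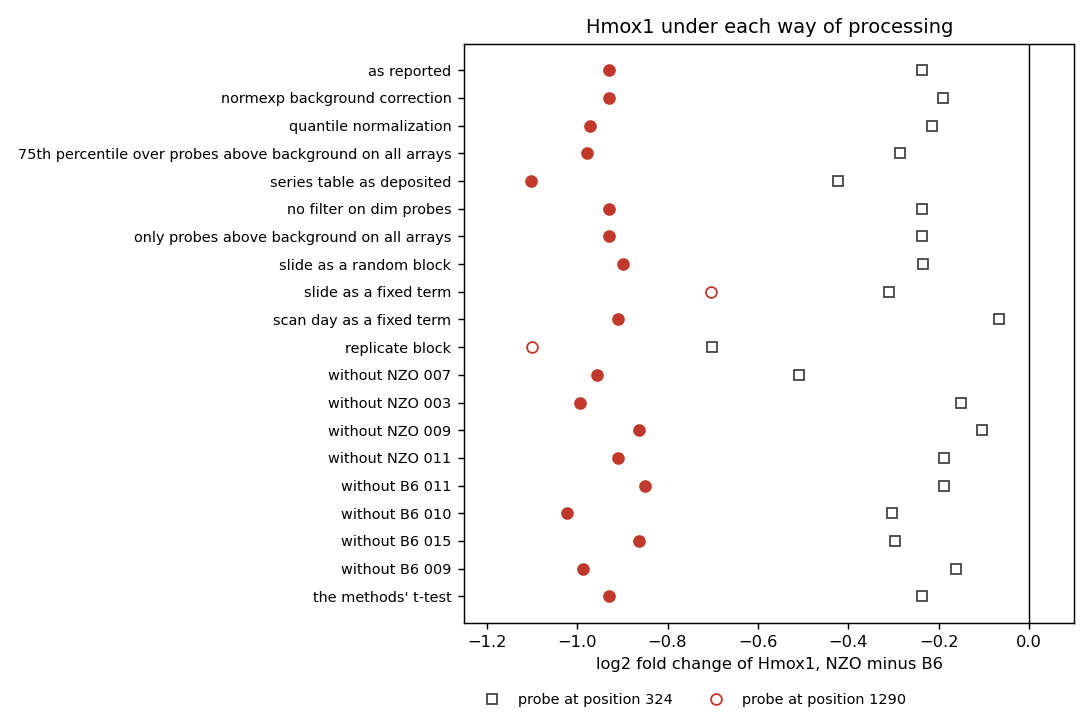
Log2 fold change of Hmox1, NZO minus B6 (x axis), under each way of processing and without each mouse (y axis); circles stand for the probe at position 1290, squares for the probe at position 324, and filled symbols passed an adjusted p of 0.05. The downstream probe stayed between -1.10 and -0.70 and lost its call with the slide as a fixed term and with the replicate block, both of which leave the comparison to few arrays, while the upstream probe stayed between -0.70 and -0.07 and was never called.

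Kupffer cells, the resident macrophages of the liver, are known to carry much of its heme oxygenase, since they take up aged red blood cells. Of 6 Kupffer cell markers, all above background on all 8 arrays, 4 were lower in NZO and 0 were higher, with a median log2 fold change of -0.67. Of all 20156 genes tested, 7.24% were lower and 7.03% higher. Clec4f, a lectin of Kupffer cells, read 3.99, 4.20, 3.88 and 3.97 in NZO and 5.10, 5.08, 5.46 and 4.95 in B6 (log2 fold change -1.13, SE 0.13, limma adjusted p = 0.00085). Cd5l, a secreted macrophage protein with the brightest probe of the 6, fell by 0.71 (SE 0.11). The scavenger receptor Marco fell by 1.83 (SE 0.36) and the macrophage receptor Adgre1 by 0.63 (SE 0.13). Timd4 (-0.18, adjusted p = 0.540) and Vsig4 (-0.30, adjusted p = 0.128) did not pass.

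The summed level of the 6 markers was 96.2, 100.98, 87.0 and 88.8 times the 75th percentile in NZO and 166, 148, 198 and 140 times in B6, so that the strains did not overlap. The sum includes the 4 markers called lower, with Cd5l as its most abundant gene, so that it adds no separate evidence. The 4 calls held without any single mouse. They were lost with the slide as a fixed term, where the log2 fold changes were -1.07 (Clec4f), -0.65 (Cd5l), -2.46 (Marco) and -0.69 (Adgre1), with adjusted p from 0.0820 to 0.195. After adjustment, 3 were lower and 0 higher in the methods' t-test, where Marco did not pass (adjusted p = 0.0593). In bulk liver, fewer cells of a type and less RNA per cell cannot be told apart. The part of these cells in the Hmox1 value was not tested.

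**Figure D3:**
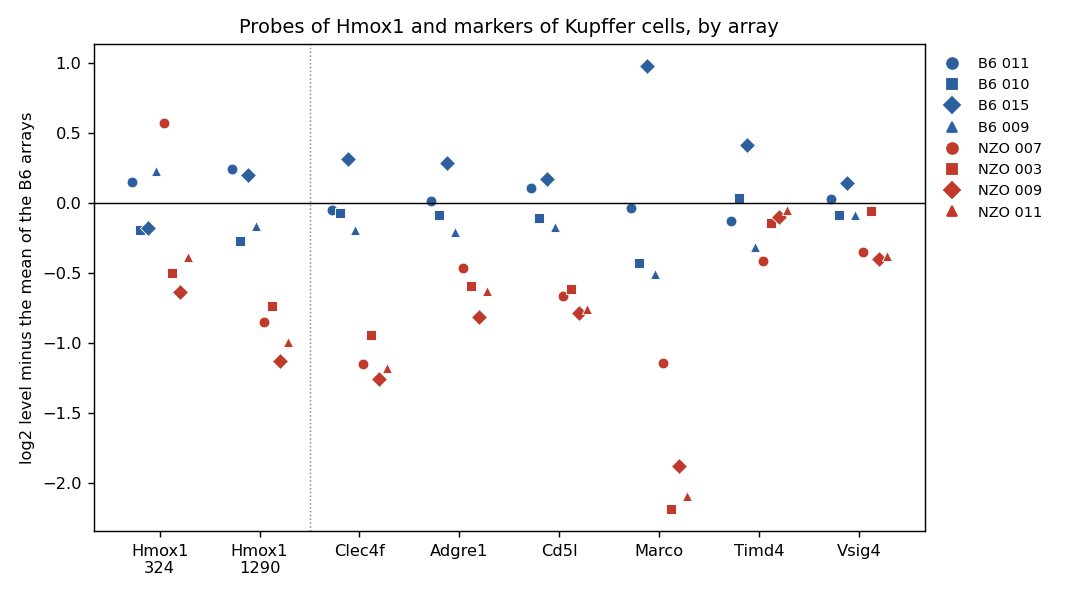
Log2 level minus the mean of the B6 arrays (y axis) for both probes of Hmox1, named by their position, and 6 markers of Kupffer cells (x axis); each point is an array, coloured by strain with a symbol for each mouse. NZO arrays lie below all B6 arrays for Hmox1 at position 1290, Clec4f, Adgre1, Cd5l and Marco, and NZO 007 lies above all B6 arrays for Hmox1 at position 324.

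The genes most alike Hmox1 at its downstream probe were sought among 13453 named genes over the 8 arrays, as a description. They were 2200002D01Rik (Pearson r = 0.99), Cd5l (r = 0.99) and C1qtnf5 (r = 0.98). Each of the 3 was lower in all NZO than in all B6 arrays, and how far the correlations reflect this difference between the strains was not tested. 2200002D01Rik had means of 2.49 in NZO and 3.22 in B6.

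The regulators come first among the other genes. Nfe2l2, on chromosome 2 from 75675513 to 75704663, read 2.51, 3.03, 3.07 and 3.14 in NZO and 2.73, 3.58, 3.19 and 3.13 in B6. NZO 007 and B6 011, both scanned on the second day, were the lowest of their strains. The log2 fold change of Nfe2l2 was -0.22 (95% confidence interval -0.70 to 0.25, limma adjusted p = 0.534). Within the first scan day Nfe2l2 differed by -0.31 between NZO and B6, within the second by -0.42, and on the slide with both strains by -0.36. Keap1, on chromosome 9 from 21229730 to 21239332, showed the least spread of the B6 arrays among the 13 probes. It read 3.41, 3.57, 3.32 and 3.30 in NZO and 3.34, 3.22, 3.34 and 3.30 in B6, with a log2 fold change of 0.10 (-0.12 to 0.32, adjusted p = 0.538). Neither gene passed the test, and changes of Nrf2 protein, which is set mainly by its degradation, are not measured by these arrays.

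Glutathione is made by glutamate-cysteine ligase, whose catalytic subunit is Gclc and whose modifier subunit is Gclm. The probe of Gclc (chromosome 9, 77754535 to 77794489) gave levels of 5.27, 5.90, 5.92 and 5.22 in NZO and 5.68, 6.21, 5.34 and 5.80 in B6. Its spread within a strain was wide, and the strains overlapped (log2 fold change -0.18, -0.73 to 0.36, limma adjusted p = 0.665). Gclm (chromosome 3, 122245487 to 122267215) had levels of 2.28, 2.64, 2.43 and 2.32 in NZO and 2.45, 2.33, 2.50 and 2.26 in B6. Its log2 fold change was 0.03 (-0.23 to 0.30, adjusted p = 0.878).

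Glutathione reductase, Gsr, returns oxidised glutathione to its reduced form with NADPH. It lies on chromosome 8 from 33653238 to 33698162. Its probe at position 2450 read 2.24, 2.74, 2.68 and 2.53 in NZO and 2.59, 2.33, 2.30 and 2.65 in B6. At position 2525 the levels were 4.15, 4.40, 4.31 and 4.12 in NZO and 4.33, 4.16, 3.94 and 4.25 in B6. Both probes had a log2 fold change close to 0, of 0.08 (-0.26 to 0.41) and 0.07 (-0.20 to 0.35), with adjusted p of 0.777 and 0.725.

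Txnrd1 and Srxn1 serve the thioredoxin side of the response. Txnrd1, the cytosolic thioredoxin reductase (chromosome 10, 82833951 to 82897724), read 4.40, 4.69, 4.55 and 4.63 in NZO and 4.65, 4.58, 4.32 and 4.52 in B6. The strains overlapped over most of their range (log2 fold change 0.05, -0.21 to 0.31, limma adjusted p = 0.813). Srxn1, the sulfiredoxin that repairs overoxidised peroxiredoxins (chromosome 2, 152105524 to 152111376), had levels of 3.45, 3.84, 3.34 and 3.72 in NZO and 3.88, 3.75, 3.71 and 4.09 in B6. Its log2 fold change of -0.27 (-0.60 to 0.06) did not pass (adjusted p = 0.273), and 2 of the NZO arrays lay within the range of the B6 arrays.

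The quinone reductase Nqo1 is a classical target of Nrf2 and lies on chromosome 8 from 107388225 to 107403205. Its probe was dim, with levels of -2.93, -2.20, -2.51 and -2.35 in NZO and -2.51, -2.19, -2.79 and -2.42 in B6. The log2 fold change was -0.02 (-0.45 to 0.41, limma adjusted p = 0.952).

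Catalase, Cat, breaks down hydrogen peroxide in peroxisomes and lies on chromosome 2 from 103453904 to 103485153. At position 1411 its levels were 4.39, 4.71, 4.46 and 4.40 in NZO and 4.30, 4.21, 4.15 and 4.36 in B6. At position 2065 they were 5.08, 5.15, 5.08 and 4.90 in NZO and 4.87, 4.59, 4.76 and 4.81 in B6. At both probes the lowest NZO array lay above the highest B6 array, by a small margin. The log2 fold changes were 0.23 (-0.02 to 0.48) and 0.30 (0.06 to 0.53), and limma's adjusted p was 0.207 and 0.102, so that neither probe passed. In the table as deposited, which is not scaled between arrays, the first of them was -0.06.

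**Figure D4:**
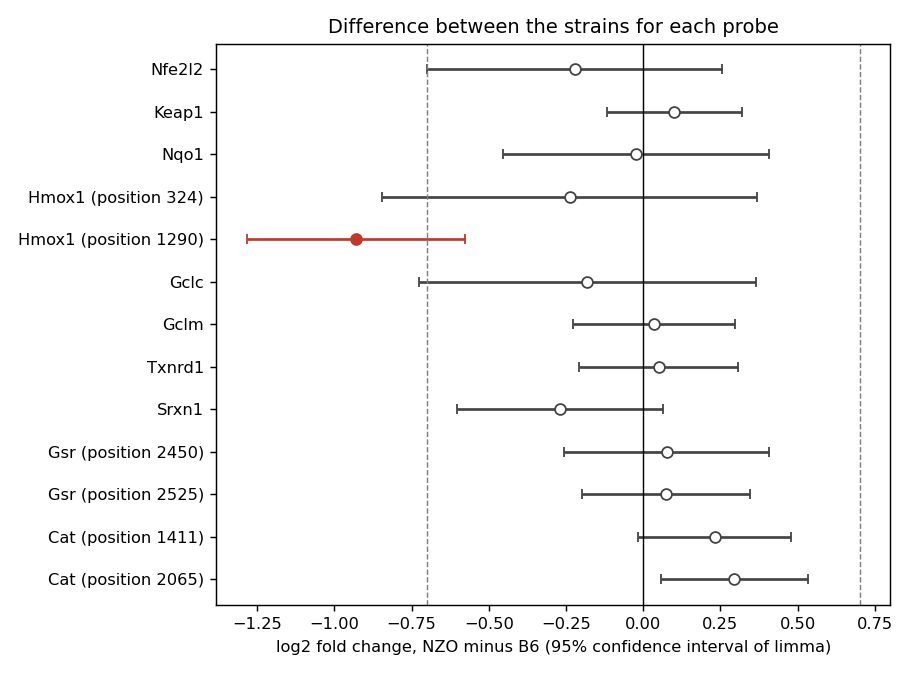
Log2 fold change of each probe, NZO minus B6 (x axis), with the 95% confidence interval of limma; the filled red point passed an adjusted p of 0.05, and dashed lines mark the fold change of 0.7 of the methods. Hmox1 at position 1290 stands at -0.93, and the other 12 probes lie between -0.27 and 0.30.

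The 12 probes that did not pass had log2 fold changes from -0.27 to 0.30, with 7 above and 5 below 0. Their 95% confidence intervals reached from -0.85 to 0.53. For 10 of the 12 the whole interval lay within 0.7 of 0, the size named in the methods, and for Gclc and the upstream probe of Hmox1 it did not. NZO 003 was the highest NZO array for 10 of the 13 probes, and it was also the NZO array with the smallest share of spots above background (50.4%). In B6, B6 011 was the highest for 5 probes and B6 015 the lowest for 7. Within both scan days the difference had the same sign for 7 of the 13 probes.

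Other genes of the pathway were described by 8 lists of known function, each gene by its brightest probe. Of 77 genes, 73 were tested, 6 were higher and 8 lower in NZO (8.22% and 10.96%), beside 7.03% higher and 7.24% lower of all 20156 genes tested. Their median log2 fold change was 0.08 and that of all genes 0.03. The tally counts Maff among the lower and Hao2 among the higher genes. Each of them entered the test only through the strain where it is higher. Of 24 list genes with more than 1 tested probe, 6 (Acox3, Ftl1, Gstm1, Me1, Prdx1 and Prdx4) had probes on both sides of the threshold.

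Of 10 regulators of Nrf2, 2 were lower in NZO and 0 were higher after adjustment of limma's p. At an unadjusted p of 0.05, 3 were lower and 0 higher, and the methods' t-test with adjustment gave 1 lower and 0 higher. Mafk and Maff, small Maf proteins that pair with Nrf2, were the lower ones. Mafk read -0.02, -0.17, 0.08 and -0.27 in NZO and 0.38, 0.77, 0.56 and 0.43 in B6, with a log2 fold change of -0.63 (SE 0.13, limma adjusted p = 0.0115). Maff was above background on 1 of 4 NZO and all 4 B6 arrays, so that its log2 fold change of -2.39 rests on values near background and its size is uncertain. The probe entered the test through the B6 arrays, where it is higher. With normexp background correction Maff was at -0.29 and did not pass (adjusted p = 0.0616). The competitor Bach1 (-0.29), the ubiquitin ligase scaffold Cul3 (-0.13) and Rbx1 (-0.03) did not pass. Mafg, another small Maf protein, was lower at an unadjusted p of 0.05 only (-0.28 at its brightest probe, limma adjusted p = 0.0975). The same held for its other probes (-0.45, -0.25 and -0.30, limma adjusted p = 0.107, 0.141 and 0.109). Nfe2l1 (0.31), Btrc (0.25), Sqstm1 (0.12) and Gsk3b (0.08) lay above 0 and did not pass either.

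Among 7 tested genes of glutathione synthesis and peroxide reduction, 2 rose in NZO and 0 fell, with 1 and 0 in the methods' t-test after adjustment. The glutaredoxin Glrx read 3.71, 4.41, 3.97 and 4.36 in NZO and 2.11, 2.28, 2.33 and 2.26 in B6. It was 3.66-fold higher in NZO (log2 fold change 1.87, SE 0.17, limma adjusted p = 0.000171), and the strains did not overlap. Gpx3, the secreted glutathione peroxidase, had a log2 fold change of 0.70 (SE 0.18, adjusted p = 0.0380), and it passed without NZO 009 or B6 009 but not without any of the other 6 mice (adjusted p up to 0.103). Ggt1 and Slc7a11 were above background on 0 arrays.

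The conjugation, detoxification and export targets of Nrf2 held the 2 largest decreases of the lists at the brightest probe of each gene, Gsta2 and Gstm2. Of 17 tested genes, 4 were lower and 1 was higher in NZO, with 4 and 0 in the methods' t-test after adjustment. The glutathione transferase Gsta2 read -3.74, -2.46, -3.82 and -2.99 in NZO and 1.02, 0.66, 1.17 and 0.95 in B6, a log2 fold change of -4.20 (SE 0.30, adjusted p = 5.67e-05). Gsta2 was above background on all 4 NZO arrays. Its levels in NZO 007 and NZO 009 lay close to the lowest detected levels of these arrays (-4.13 and -4.23), so that the size of its change is uncertain. Gstm2 fell by 3.07 (SE 0.15) and Gstm3 by 1.86 (SE 0.11). The exporter Abcc3 read 2.19, 2.26, 2.20 and 2.23 in NZO and 3.30, 3.49, 3.32 and 3.76 in B6, and fell by 1.25 (SE 0.12). All 4 kept their call without any single mouse.

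Glutathione transferases form families of similar sequence, and neither how far a probe reads a relative nor whether NZO variants lie under these probes was tested. The other probes of Gstm2 gave -3.38 and -2.89 and that of Gstm3 -5.82, while Gstm1 gave 0.16 at its brightest probe and -1.39 at the other. The higher gene was Gsta4, named after its value was seen, with a log2 fold change of 0.48 (adjusted p = 0.04996), and it passed without B6 015 alone among the 8 mice.

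The thioredoxin system had 1 higher and 1 lower gene of 12 tested. Prdx3, the mitochondrial peroxiredoxin, fell by 0.58 (SE 0.11, limma adjusted p = 0.00951) and passed without any single mouse. Prdx4, the peroxiredoxin of the endoplasmic reticulum, had a log2 fold change of 0.39 (adjusted p = 0.0253), passed without NZO 007 or B6 011 and did not without any of the other 6 mice (adjusted p up to 0.0810). A second, dimmer probe of Prdx4 gave -0.33. The methods' t-test after adjustment gave 0 higher and 1 lower. Prdx1, a cytosolic peroxiredoxin, did not pass at its brightest probe (0.24, limma adjusted p = 0.156) and was higher by 1.39 at the other (adjusted p = 4.9e-05).

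Of 6 genes of NADPH supply, which feeds the reductases above, 0 passed in limma after adjustment or in the methods' t-test, and 2 were higher at an unadjusted p of 0.05. They were Me1, the malic enzyme (0.65, adjusted p = 0.132), and Tkt, the transketolase (0.22, adjusted p = 0.151). Me1 passed without NZO 007 (0.84, adjusted p = 0.0433), and another probe of Me1 gave 1.01 (adjusted p = 0.0159). Of the 3 superoxide dismutases 0 passed in limma after adjustment, and 1 was higher at an unadjusted p of 0.05 and in the methods' t-test. That was Sod1, with 0.30 (limma adjusted p = 0.0608), while Sod2 gave 0.22 (adjusted p = 0.271).

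Around Hmox1, 1 of 10 genes of heme and iron handling was higher and 0 were lower after adjustment, with 2 higher and 1 lower at an unadjusted p of 0.05 and 0 in the methods' t-test after adjustment. The ferritin light chain Ftl1 had a log2 fold change of 0.38 (SE 0.10, limma adjusted p = 0.0422), and passed without NZO 009 alone among the 8 mice (adjusted p up to 0.107 without another). Its other probe gave 0.44 (adjusted p = 0.0542). Hmox2, the constitutive heme oxygenase, gave -0.11 and the biliverdin reductases Blvra and Blvrb gave 0.09 and -0.04. Of 4 markers of red blood cells 2 were higher in NZO after adjustment (Hba-a1 1.00 and Alas2 0.90), beside 7.03% of all genes tested. In the methods' t-test 1 of these markers was higher after adjustment. Their summed level was 366, 318, 470 and 293 in NZO and 208, 165, 155 and 197 in B6. Hba-a1 had the brightest probe of these, 0 of the 4 were at background, and their part in the values was not tested. Hba-a1 did not pass without B6 010 (0.93, adjusted p = 0.0552) or B6 015 (0.94, adjusted p = 0.0531).

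Peroxisomal oxidases form the hydrogen peroxide that catalase removes. Of 8 tested, 1 was higher and 1 was lower in NZO. Hao2, a hydroxyacid oxidase, read 0.55, 0.78, 1.55 and 0.68 in NZO and was not well above background on any B6 array. It was at least 35.5-fold higher in NZO, where the level of a B6 array was taken as its own or as the lowest detected level of that array, whichever was greater. The limma adjusted p of 7.42e-07 belongs to the measured values, which in B6 are background, and not to the bound, and the probe entered the test through the NZO arrays. Acox2, the oxidase of branched-chain acyl-CoA and bile acid intermediates, fell by 0.42 (adjusted p = 0.0484), and it passed without NZO 003 alone among the 8 mice (adjusted p up to 0.117 without another). The methods' t-test after adjustment gave 1 higher and 0 lower. Acox3, another acyl-CoA oxidase, had 0.56 at its brightest probe (limma adjusted p = 0.291) and a lower level in NZO at a dimmer one (-1.60, adjusted p = 0.0113).

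**Figure D5:**
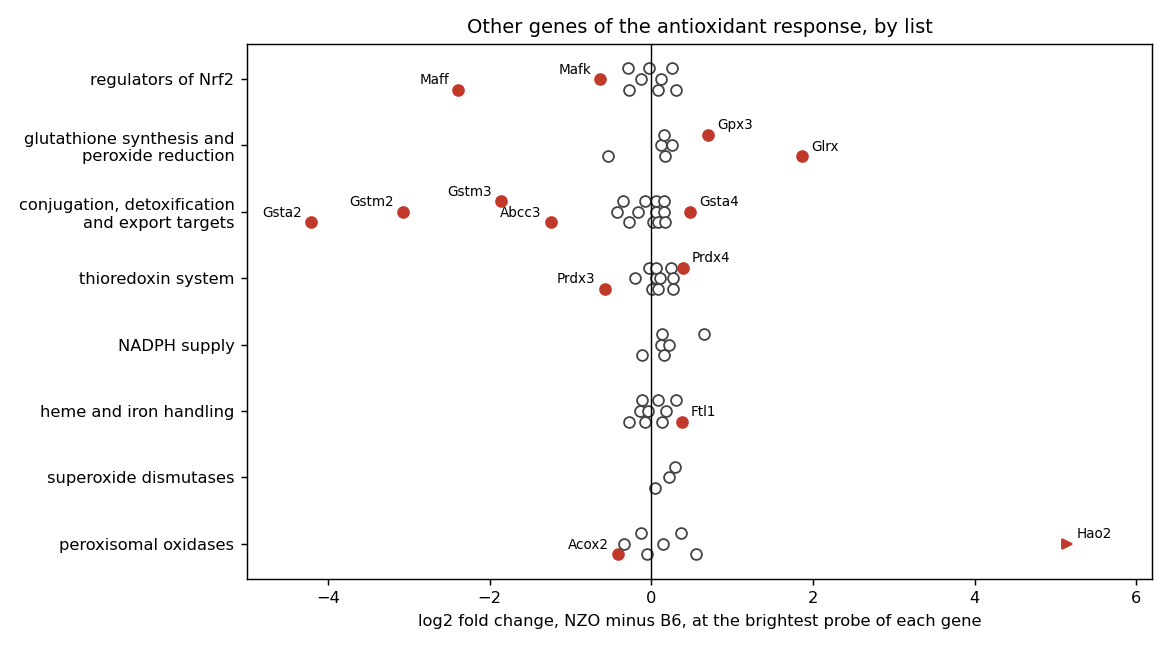
Log2 fold change, NZO minus B6, at the brightest probe of each gene (x axis) for 8 lists (y axis); filled named points passed an adjusted p of 0.05, open points did not, points are set apart vertically to be seen, and the triangle is a lower bound. Gsta2, Gstm2 and Gstm3 lie lowest beside Maff, where the points of Maff and Gsta2 rest on values near background in NZO, and Glrx and the bound of Hao2 lie highest.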

How the data were processed

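Liver of 4 NZO and 4 B6 mice was measured, with 1 array per mouse. The authors deposited the scanner output, in which Agilent Feature Extraction (11.0.1.1 in the file headers, 9.1 in the submitters' processing notes) gives the intensity of each spot, background-subtracted and without scaling between arrays, and a table whose values equalled the raw median intensity for 59305 of 59305 spots on each array (tolerance 0.01).

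Control spots and flagged outlier spots (between 96 and 137 on an array) were dropped. Processed signals were taken as log2, minus the 75th percentile of the array, and spots of a probe were averaged. Probes well above background on all 4 arrays of a strain were tested, 27639 of 55681. In R 4.3.3 (data.table package, version 1.17.8), limma 3.58.1 compared the strains without a block, with Benjamini-Hochberg adjustment over all probes tested, and a probe passed at an adjusted p of 0.05. The fit was also run on simulated data with known changes and independent noise, without effects of slide or scan day. Python 3.11.15 with pandas 2.3.3, scipy 1.17.1 and matplotlib 3.10.9 made tables and plots. All columns used belong to 1 sample each.

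The 10 genes and all lists were chosen with earlier results of these data known. Besides them, the text names in each list the 4 largest changes past the threshold, or else the 2 largest, marker genes past it, and the 3 genes most alike the leading gene, with exceptions stated. Some further members are given only as values. Adgre1 was found by an older symbol, and Gsta1 had no probe of that name. Marker lists were hepatocytes, Kupffer cells, leukocytes, red blood cells, sinusoidal endothelium, stellate cells, bile duct cells, adipocytes, exocrine pancreas and skeletal muscle. Gene positions are RefSeq's on GRCm38.p6, whereas probe positions are those of the files on mm9.

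Alternatives were normexp background correction (offset 50), quantile normalization, the 75th percentile over probes above background on all 8 arrays, the deposited table, no filter and a stricter filter on dim probes, slide, scan day or mouse number as a block, the methods' t-test and leaving out each mouse. Whether mice of a strain shared a litter is not given in the sources used here.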

Additional observations from a re-analysis of the deposited data

Results flagged for a closer look

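Among 88 sets of 4 arrays (the probes named, each in NZO and in B6), 2 held an array far from the other 3 of its strain, where chance flags about 1 in 20. None of the 13 probes of the 10 genes was among them. Itgax, a leukocyte marker, had a log2 level of -1.18 in B6 015 while the other B6 arrays lay between -1.94 and -1.92. Cd68, a macrophage marker, had 1.79 in NZO 007 while the other NZO arrays lay between 1.42 and 1.47.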

How the results depend on the processing

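The 0 probes higher in NZO stayed 0 under all 19 alternatives by both rules. The 1 lower probe, Hmox1 at position 1290, became 0 with the slide as a fixed term (where the strains are compared on the 3 arrays of 1 slide) and 0 with the replicate block, where 2 probes passed the methods' thresholds. Mouse numbers 009 and 011 occur in both strains, and the labels do not say that they pair mice. Deviations from the strain mean had correlations of -0.29 (009) and -0.03 (011) between arrays of the same number. With so few arrays this cannot decide whether mice were matched. As a block, the number leaves the comparison of the strains to the arrays of 009 and 011. The block lowered the calls over all probes from 1873 higher and 2057 lower to 72 and 134, and the slide as a fixed term to 497 and 984. The methods' t-test gave 1304 and 1193. The deposited table moved the median of all probes from 0.01 to -0.15 and the share of higher calls from 47.7% to 22.8%.

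Of 247 values of the 13 probes under alternatives, 215 kept direction and side of the threshold, 2 (Hmox1) lost the call and 30 changed sign, none of them past the threshold. With normexp the changed values were -0.0067 (Gclm), -0.046 (Gsr at 2525), 0.098 (Nqo1) and -0.013 (Txnrd1). Quantile normalization gave 0.013 (Nqo1), -0.039 (Txnrd1), -0.0092 (Gclm) and -0.014 (Gsr at 2525), and the percentile over detected probes -0.013 (Gclm). The deposited table gave -0.23 and -0.16 (Gsr), -0.19 (Txnrd1), -0.19 (Gclm), -0.061 (Cat at 1411) and -0.11 (Keap1). The replicate block gave -0.0086 (Keap1), 0.17 (Nfe2l2), 0.031 (Nqo1), -0.021 and -0.073 (Gsr). The slide gave 0.11 (Srxn1), 0.12 (Gclc) and 0.29 (Nqo1) as a fixed term and 0.0030 (Nqo1) as a random block. Without 1 mouse, Gclm lay between -0.041 and 0.080, Nqo1 between -0.13 and 0.12, Txnrd1 between -0.018 and 0.11 and Gsr at 2525 between -0.0012 and 0.13. The cause was not tested. Of 586 values of the 31 other genes tested so, 432 were kept, 151 lost the call, 2 gained it and 1 changed sign (Tkt, -0.048 in the deposited table). Dim probes such as Nqo1 and Maff are limited by signal over background.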

Other observations

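The marker lists not described so far varied between the strains. Over all genes tested, 7.03% were higher and 7.24% lower in NZO, beside the counts that follow. Of 5 leukocyte markers 2 were lower in NZO (Itgax -2.04 and Cd68 -0.42), and each of them passed without NZO 007 alone among the 8 mice. The methods' t-test after adjustment gave 0 lower and 0 higher. Another, dimmer probe of Cd68 gave -0.25 and did not pass (limma adjusted p = 0.485). Lyz2 (0.41, adjusted p = 0.109) and Cd3e (0.33, adjusted p = 0.578) lay on the other side of 0, Ptprc was at -0.52 (adjusted p = 0.0831), and the summed level was 10.8 to 18.8 in NZO and 10.8 to 13.4 in B6. Itgax was above background on 2 of 4 NZO arrays and entered the test through the B6 arrays, where it is higher, so that the size of its change is uncertain. Cd3e had the brightest probe of the list. Of 4 tested bile duct markers, Sox9 (-1.47) and Spp1 (-0.89) were lower (1 in the methods' t-test after adjustment), with a summed level of 1.69 to 2.51 in NZO and 3.42 to 5.43 in B6. Spp1 passed without B6 010, B6 015 or B6 009 and did not without any of the other 5 mice (adjusted p up to 0.0812). Epcam was above background on 0 NZO and 3 B6 arrays.

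Of 5 markers of sinusoidal endothelium, Stab2 was higher (0.48) and Lyve1 lower (-0.62), with 1 and 0 in the methods' t-test after adjustment, and the other Stab2 probes gave -0.44 and -0.93, neither of which passed. Lyve1 passed without NZO 003, B6 011 or B6 015 and did not without any of the other 5 mice (adjusted p up to 0.0714). Of 5 stellate cell markers 0 passed in limma or in the methods' t-test after adjustment, and 2 were lower at an unadjusted p of 0.05. Car3, listed for adipocytes and also expressed in liver, was higher in NZO by 0.47, while Cidec (0.42) and Fabp4 (-0.30) did not pass. Of 2 tested pancreas and 3 tested muscle markers, 0 passed in either test or at an unadjusted p of 0.05.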
